A study of Mus musculus with 12 samples.

Results

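Ibsp, the gene of bone sialoprotein, was selected on its strong rise in Nr2f2 cKO testes, and 7 genes were set beside it by position or by role. Spp1, Dmp1, Dspp and Mepe are its neighbours on chromosome 5, and Runx2, Sp7 and Alpl are genes of osteoblast differentiation and mineralization. These 8 genes are 8 of the 24470 genes with counts in the series, and each was found by its symbol. The comparison addressed whether the rise of Ibsp was accompanied by other bone genes or stood alone.

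RNA was sequenced from whole mouse testes at E14.5, in pools of 3 testes, with 6 pools a group. The control group was Nr2f2 f/f. The cKO group carried Wt1 CreER and Nr2f2 f/f, a model in which Cre is active in Wt1-expressing cells after tamoxifen and removes Nr2f2, the gene of the orphan nuclear receptor COUP-TFII. Tamoxifen was given at E11.5 and E12.5 according to the study's methods. The floxed allele, which both groups carry, holds a LacZ reporter that is transcribed after recombination. Deletion reached part of the Nr2f2-expressing cells, so cKO testes were mixtures of deleted and non-deleted cells. No label says which pools came from separate litters, so p-values measure the spread between these pools.

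The SIBLING proteins (small integrin-binding ligand, N-linked glycoproteins) are acidic, secreted phosphoproteins of bone and dentin that lie side by side in the genome. They bind calcium and hydroxyapatite, and they hold an RGD motif through which cells attach by integrins. Bone sialoprotein promotes the nucleation of mineral, whereas osteopontin, the product of Spp1, restrains crystal growth and is also made by many soft tissues and by macrophages. In bone, these genes act downstream of Runx2 and Sp7, the transcription factors that commit cells to the osteoblast lineage, together with Alpl, the phosphatase that supplies phosphate for mineral. The testis forms no bone.

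The genes of the cluster are read in the same direction, and the order along the chromosome is Dspp, Dmp1, Ibsp, Mepe and Spp1. In mm10 coordinates, Ibsp spans chr5:104299287-104311472 on the plus strand, has up to 7 exons and overlaps no other annotated gene. Mepe begins 26.0 kb beyond the start of Ibsp and Spp1 begins 136 kb beyond it, while Dmp1 begins 96.7 kb and Dspp 129 kb before it. The 250 bases before the start site are shown for the 4 cluster genes with a RefSeq promoter entry (GRCm38.p6) at the start used for counting, since these neighbours lie side by side while, among them, Ibsp was the gene selected for its rise. Capitals mark every match to AGGTCA (a nuclear receptor half-site), TGTGGT (RUNX), TAATTA (homeodomain), CCAAT and GGGCGG (SP), searched on both strands, and each sequence is written 5′ to 3′ on the plus strand.
Ibsp, chr5:104299037-104299286: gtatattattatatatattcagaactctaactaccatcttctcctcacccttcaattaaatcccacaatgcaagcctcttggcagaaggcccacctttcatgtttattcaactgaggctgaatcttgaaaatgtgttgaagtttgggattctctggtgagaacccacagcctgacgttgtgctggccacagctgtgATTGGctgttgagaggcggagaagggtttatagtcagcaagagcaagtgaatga
Spp1, chr5:104434861-104435110: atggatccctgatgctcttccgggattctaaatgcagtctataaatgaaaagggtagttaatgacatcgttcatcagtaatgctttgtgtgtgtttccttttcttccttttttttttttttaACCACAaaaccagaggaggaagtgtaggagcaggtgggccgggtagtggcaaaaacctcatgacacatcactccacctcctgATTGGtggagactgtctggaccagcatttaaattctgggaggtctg
Dmp1, chr5:104202367-104202616: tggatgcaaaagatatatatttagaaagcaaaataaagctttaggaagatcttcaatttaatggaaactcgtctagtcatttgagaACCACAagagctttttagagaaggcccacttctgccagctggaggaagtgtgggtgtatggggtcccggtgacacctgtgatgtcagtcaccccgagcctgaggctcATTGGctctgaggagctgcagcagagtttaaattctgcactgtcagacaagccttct
Mepe, chr5:104325079-104325328: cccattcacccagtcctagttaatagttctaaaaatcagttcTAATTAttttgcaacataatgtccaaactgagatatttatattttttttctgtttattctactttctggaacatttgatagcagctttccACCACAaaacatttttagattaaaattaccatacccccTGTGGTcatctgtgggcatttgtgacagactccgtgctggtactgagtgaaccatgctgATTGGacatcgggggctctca

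The window of Ibsp held a single match, to the CCAAT letters on the minus strand, at bases -54 to -50 from the start site (printed there as ATTGG). The other 3 genes had the same letters close to their starts, at -46 to -42 in Spp1, at -57 to -53 in Dmp1 and at -21 to -17 in Mepe. The RUNX letters, written ACCACA where they lie on the other strand, occurred at -128 to -123 in Spp1, at -164 to -159 in Dmp1 and at -118 to -113 in Mepe, with a plus strand match at -80 to -75 in Mepe, which also held TAATTA at -208 to -203. They were not found before the start of Ibsp, which says only that these letters are not in this window. The AGGTCA letters were found in none of these 4 windows. Across 32851 RefSeq promoters of 300 bases (250 before and 50 after the start), 37.4% held the CCAAT letters, 16.8% the RUNX letters, 16.3% the AGGTCA letters, 35.7% the SP letters and 5.29% the homeodomain letters. Of the other members, Alpl held 3 GGGCGG matches at its start, at -15 to -10, at -10 to -5 and at 1 to 6, 2 of which overlap.

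Levels are given in CPM, the usual measure of counts relative to library size, here with library sizes scaled by the TMM method. The 2 groups were tested with the quasi-likelihood method of edgeR over the 15572 genes that passed a filter on low counts, and a gene was called changed at a Benjamini-Hochberg adjusted p under 0.05. Total counts ran from 7044531 to 59404778 a pool. The targeted gene Nr2f2 was at 163 to 186 CPM in control pools and at 50.2 to 119 CPM in cKO pools, lower in each cKO pool than in every control pool. Xist, a noncoding RNA transcribed from the inactive X in female cells, exceeded 100 CPM in 1 control pool (replicate 1) and 3 cKO pools (replicates 3, 5 and 6), at 304 to 891 CPM, and lay at 5.15 to 7.68 CPM in the other 8 pools. Results are therefore also given for the 5 control and 3 cKO pools with low Xist. Markers of testis cell types were present in every pool, with Sertoli cell markers summing to 571 to 1067 CPM and germ cell markers to 1233 to 2181 CPM.

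Ibsp was nearly silent in control testes and present at a low level in every cKO pool. In control pools 1 to 6 it was at 0.0812, 0.203, 0.327, 0.235, 0.153 and 0.145 CPM, from 3, 5, 13, 5, 2 and 1 counts. In cKO pools 1 to 6 it was at 3.07, 1.72, 2.47, 3.85, 1.76 and 2.68 CPM, from 85, 26, 86, 130, 13 and 160 counts. The groups did not overlap, and the lowest cKO pool was 5.26 times the highest control pool. Among all genes tested, 5.52% had groups that did not overlap and 8.13% were called, 3.28% higher and 4.85% lower in cKO. Since Ibsp was chosen by this difference, its values are a description and carry no test. The mean was 0.191 ± 0.0851 CPM (SD, n = 6) in control and 2.59 ± 0.811 CPM (SD, n = 6) in cKO testes. The fitted log2 fold change was 3.69 with a standard error of 0.31, a 12.9-fold difference and the rank of 4 among 15572 genes by size of rise. The 29 control counts in all have an exact 95% Poisson interval of 19.4 to 41.6, and the 500 cKO counts one of 457 to 546, which cover counting error only. Ibsp passed the filter through its cKO counts.

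The rise was of similar size without the pools that stood apart. With low-Xist pools alone the log2 fold change of Ibsp was 3.60, and leaving out each pool in turn gave 3.46 to 4.01. Among cKO pools, Ibsp varied 2.24-fold, and the low-Xist pools (3.07, 1.72 and 3.85 CPM) enclosed the high-Xist pools (2.47, 1.76 and 2.68 CPM). Other features of the testes moved between the groups as well. Of 5 markers of interstitial cells, 3 were called lower (Nr2f2, Tcf21 and Wnt5a; 4 by DESeq2, with Pdgfra), with a summed level of 1110 to 1417 CPM in control and 630 to 1139 CPM in cKO pools. Of 5 Leydig cell markers, 4 were called lower (Cyp17a1, Cyp11a1, Hsd3b1 and Insl3), with sums of 1561 to 2910 and 841 to 1745 CPM. Of 12 macrophage markers, 3 were called higher (Csf1r, Cx3cr1 and C1qb; 5 by DESeq2 and 6 by limma-voom), with sums of 67.6 to 101 and 89.8 to 113 CPM. Of 7 markers of mesonephric epithelium, Pax8 and Lhx1 were called higher, the sums of 46.8 to 88.4 and 46.0 to 73.0 CPM overlapped, and Cdh16 and Wnt9b had no counts in some pools. None of the 5 Sertoli and 10 germ cell markers was called by edgeR, DESeq2 or limma-voom, which is near the 8.13% of all genes called by edgeR. At an unadjusted p under 0.05, edgeR counted 0 of them, and DESeq2 and limma-voom each counted 1 germ cell marker, higher in cKO. Tek was called lower among 6 endothelial markers. With low-Xist pools alone the interstitial and Leydig cell calls were the same genes, Csf1r and Cx3cr1 were called and C1qb was not, and Pax8, Lhx1 and Tek were not called, while Emx2, a mesonephric marker, was called lower and Nanos2, a germ cell marker, was called higher. The part of these cell types in the level of Ibsp was not tested, and in whole testes more cells that express a gene and more RNA per cell cannot be told apart.

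**Figure D1:**
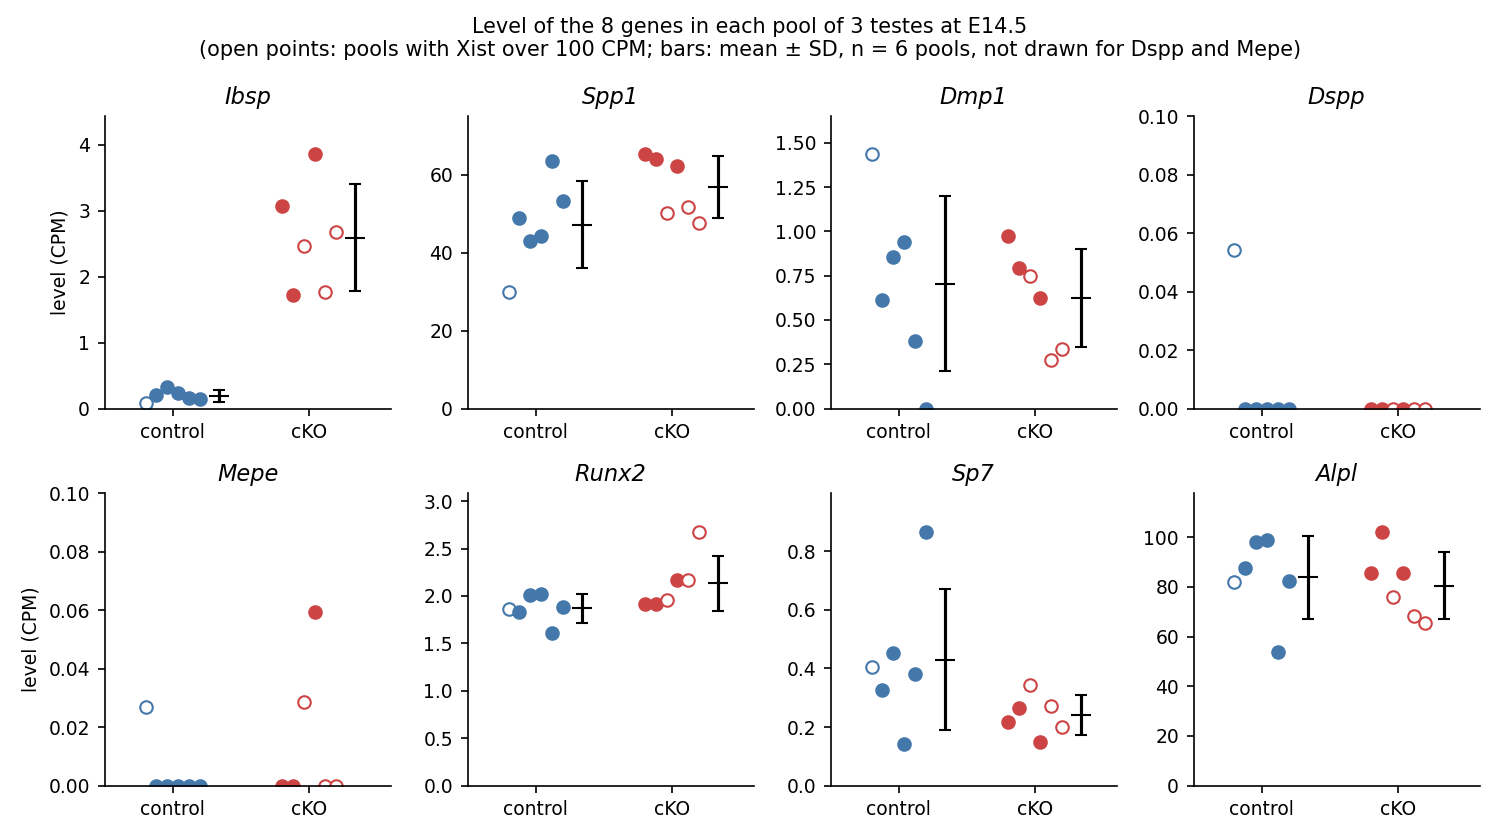
Level in CPM (vertical axes, linear, from 0, with a scale for each gene) of the 8 genes in each pool of 3 testes, control in blue and cKO in red, with open points for pools with Xist over 100 CPM and bars for the mean ± SD of 6 pools (not drawn for Dspp and Mepe). The 6 cKO pools lie above the 6 control pools for Ibsp, which was chosen for this rise. The groups overlap for each of the other 7 genes, of which Dspp, Mepe and Sp7 did not pass the filter. Overlap is the usual case, since only 5.52% of all genes tested had groups that did not overlap.

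Spp1, the gene of osteopontin, was abundant in both groups. It was at 30.0, 48.8, 42.9, 44.4, 63.4 and 53.2 CPM in control pools 1 to 6 and at 65.2, 63.9, 50.3, 62.3, 51.7 and 47.5 CPM in cKO pools 1 to 6. The groups overlapped, with 2 cKO pools above every control pool. Spp1 did not pass the test, with a log2 fold change of 0.28 (standard error 0.15, 95% interval -0.04 to 0.59) and an edgeR adjusted p of 0.252. Of the 7 members beside Ibsp, the 4 that passed the filter were not called by edgeR, DESeq2 or limma-voom, beside 8.13% of all genes with edgeR, and at an unadjusted p under 0.05 edgeR and DESeq2 counted 0 and limma-voom 1 of them. The high-Xist pools had lower Spp1 than the low-Xist pools of their own group, 30.0 CPM in the control pool and 47.5 to 51.7 CPM in the cKO pools. With low-Xist pools alone the log2 fold change was 0.35, with an adjusted p of 0.0944.

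Dmp1, which encodes a matrix protein of osteocytes and dentin and regulates phosphate, was low and varied widely among pools, with 0 to 53 counts in control and 2 to 27 counts in cKO pools. It was at 1.43, 0.610, 0.855, 0.942, 0.383 and 0 CPM in control pools and at 0.975, 0.793, 0.747, 0.622, 0.271 and 0.335 CPM in cKO pools. All cKO values fell within the range of the control pools. The log2 fold change was -0.32 (standard error 0.42, 95% interval -1.22 to 0.57; edgeR adjusted p 0.652), and with low-Xist pools alone it was 0.25 (adjusted p 0.707).

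Dspp, the gene of the main phosphoprotein of dentin, and Mepe, the gene of an osteocyte phosphoglycoprotein that inhibits mineralization, were at or under the floor of 3 counts in every pool. Dspp had 2 counts in control pool 1 and 0 in each of the other 11 pools. A count of 0 allows a level of up to 0.0502 CPM in the deepest cKO pool and 0.407 CPM in the shallowest. Mepe, whose start lies nearest to Ibsp, had 1 count in control pool 1, 1 in cKO pool 3 and 2 in cKO pool 4. Neither gene passed the filter, and no fold change is given.

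The factors that drive osteoblast differentiation were low in both groups. Runx2, the master transcription factor of the osteoblast lineage, was at 1.87, 1.83, 2.01, 2.02, 1.61 and 1.88 CPM in control pools and at 1.91, 1.92, 1.95, 2.16, 2.17 and 2.68 CPM in cKO pools. Of the cKO pools, 3 lay above every control pool and 3 lay within their range. The difference did not pass the test, with a log2 fold change of 0.19 (standard error 0.14, 95% interval -0.10 to 0.49) and an edgeR adjusted p of 0.399. The antisense genes Runx2os1, Runx2os2 and Runx2os3 and the gene Supt3 overlap Runx2 on the other strand, and the counting used strand. The rRNA gene n-R5s27 overlaps Runx2 on the same strand. Sp7, the gene of osterix, had 55 counts in control and 41 counts in cKO pools and did not pass the filter. It was at 0.406, 0.325, 0.453, 0.141, 0.383 and 0.868 CPM in control pools and at 0.217, 0.264, 0.345, 0.148, 0.271 and 0.201 CPM in cKO pools. Each cKO value lay within the range of the control pools, and the means of 0.429 and 0.241 CPM gave an exact two-sided permutation p of 0.0628 over 924 splits of the pools. In an edgeR fit with no filter the log2 fold change of Sp7 was -0.74, with an adjusted p of 0.261.

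Alpl, the gene of tissue-nonspecific alkaline phosphatase, which is also a marker of primordial germ cells, was the most abundant member by CPM. It was at 81.9, 87.8, 98.0, 99.1, 53.6 and 82.6 CPM in control pools and at 85.8, 102, 76.0, 85.6, 68.3 and 65.7 CPM in cKO pools. The groups overlapped, and the log2 fold change was -0.06 (standard error 0.14, 95% interval -0.36 to 0.24; edgeR adjusted p 0.819). The 3 high-Xist cKO pools, at 65.7 to 76.0 CPM, lay below the 3 low-Xist cKO pools, at 85.6 to 102 CPM. With low-Xist pools alone the log2 fold change was 0.11, with an adjusted p of 0.663.

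The order of the members by level is given per kilobase of exon, which allows comparison between genes. In control testes Spp1 (28.6 ± 6.78 CPM per kb, SD, n = 6) and Alpl (20.8 ± 4.10) led and overlapped each other. Dmp1 (0.255 ± 0.179), Runx2 (0.212 ± 0.0172), Sp7 (0.126 ± 0.0708) and Ibsp (0.0922 ± 0.0412) followed far behind, and the pools of Ibsp overlapped those of Sp7 and Dmp1 but not those of Runx2. In cKO testes Spp1 (34.5 ± 4.75) and Alpl (20.0 ± 3.37) led again and no longer overlapped. Ibsp (1.25 ± 0.392) came next, with its lowest pool at 0.831 CPM per kb above the highest pool of Dmp1 (0.353) and of Runx2 (0.303). Among 15211 tested genes with an exon length, Ibsp stood at the percentile of 1.28 in control testes and 22.1 in cKO testes. Its cKO level remained below that of most genes tested.

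Within 500 kb on either side of Ibsp, 14 other genes are annotated, of which 9 passed the filter and 5 did not (Hsd17b13, Mir5619, Gm17660, Dspp and Mepe). None of the 9 was called by edgeR, DESeq2 or limma-voom, and 1 (Klhl8) had an unadjusted p under 0.05 in edgeR and 2 in either of the other tools. With 8.13% called over all genes tested, 0 of 9 is near the background share and is no result about these genes. Their log2 fold changes ran from -0.32 in Dmp1 to 0.39 in Klhl8 (standard error 0.17, adjusted p 0.161), with a median of 0.17 against 0.00 over all genes tested, and included 0.25 in Aff1, 0.00 in Hsd17b11, -0.14 in Nudt9 and 0.17 in Thoc2l. Sparcl1, a matrix glycoprotein gene from whose lineage the SIBLING genes are thought to derive, was at 158 ± 57.1 CPM in controls and 181 ± 19.9 CPM in cKO testes (SD, n = 6; log2 fold change 0.20, adjusted p 0.502). Pkd2, the gene of a cation channel just beyond Spp1, was at 122 ± 13.5 and 124 ± 8.10 CPM, with a log2 fold change of 0.01 (adjusted p 0.937).

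**Figure D2:**
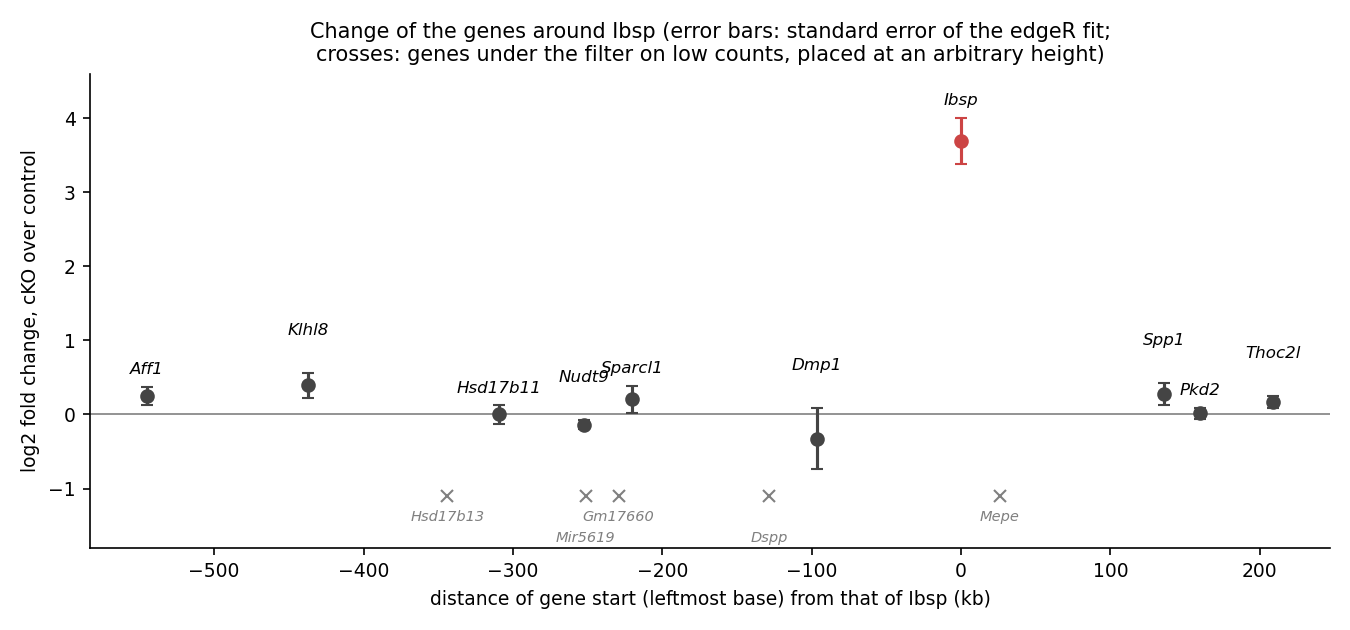
Log2 fold change of cKO over control (vertical axis) of the genes within 500 kb of Ibsp, placed by the distance in kb of their leftmost base from that of Ibsp (horizontal axis), with bars for the standard error of the edgeR fit and crosses at an arbitrary height for the 5 genes under the filter. Ibsp stands at 3.69, and the 9 other tested genes lie between -0.32 and 0.39.

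Bone, cartilage, mineralization, tooth, osteoclast, integrin and RUNX genes were then counted as 7 lists of 105 genes in all without Ibsp, the 7 other members included, of which 76 were tested. Of these, 6 were called higher and 7 lower in cKO testes, shares of 7.89% and 9.21% beside the 3.28% and 4.85% over all genes tested. The median log2 fold change was 0.10, and the largest rise, of Cnmd, was 1.61. With low-Xist pools alone 7 were called higher and 5 lower. Leaving out 1 pool gave 3 (without control 3 or control 4) to 14 (without control 1) called higher and 4 (without control 6 or cKO 1, 4, 5 or 6) to 8 (without control 1) called lower, while the calls over all genes ran from 816 (without cKO 4) to 3106 (without control 1).

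Genes of osteoblasts and osteocytes were called in the lower direction, and the lack of calls in the higher direction is near the background share. Of 23 tested of 32, none was called higher (3.28% over all genes tested) and 4 were called lower, a share of 17.4% beside 4.85%. The median log2 fold change was 0.05, and 12 of the 23 were positive. DESeq2 and limma-voom also called none higher, and 2 genes had an unadjusted p under 0.05 in that direction in edgeR. Twist1, a transcription factor of mesenchyme that restrains RUNX2, fell by 0.85 on the log2 scale (standard error 0.15, adjusted p 0.00302). Cdh11, the gene of the mesenchymal adhesion protein cadherin 11, fell by 0.54 (adjusted p 0.00659). Tnfrsf11b, which encodes the decoy receptor osteoprotegerin, fell by 0.53 (adjusted p 0.0347), and the stress transcription factor gene Atf4 fell by 0.29 (adjusted p 0.0409). Tnfrsf11b was not called in 9 of 19 alternative settings, low-Xist pools among them, and Atf4 was not called in 13 of 19. Among the most abundant by length, the collagen gene Col1a1 was at 1615 ± 358 CPM in controls and 1156 ± 401 CPM in cKO testes (SD, n = 6; log2 fold change -0.48, adjusted p 0.172), and the matrix gene Sparc had a log2 fold change of 0.19 (adjusted p 0.327). Of the osteocalcin genes, whose protein is a late product of osteoblasts, Bglap had 33 counts and Bglap2 had 0 over the 12 pools. Bglap3, which lies in the same cluster and passed the filter, had 51 counts in control and 101 counts in cKO pools, at 0.372 ± 0.125 and 0.535 ± 0.221 CPM (SD, n = 6), with a log2 fold change of 0.63 that was not called by edgeR (adjusted p 0.187).

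Among 18 genes of mineralization and phosphate, 2 were called in each direction. That is a share of 11.1% either way, beside 3.28% higher and 4.85% lower over all genes tested. Smpd3, the gene of a neutral sphingomyelinase needed for skeletal mineralization, was at 2.11, 1.30, 1.28, 1.22, 2.52 and 3.33 CPM in control pools and at 2.35, 2.18, 5.11, 3.76, 9.77 and 8.46 CPM in cKO pools. It rose by 1.48 on the log2 scale (standard error 0.39, adjusted p 0.0313), and the 3 high-Xist cKO pools were its 3 highest. With low-Xist pools alone the log2 fold change of Smpd3 was 0.73 and it was not called (adjusted p 0.173). Nt5e, whose enzyme makes adenosine and limits ectopic calcification, rose by 0.49 (adjusted p 0.0284), and it was not called in 6 of 19 settings. Mgp, the gene of matrix Gla protein, an inhibitor of calcification of soft tissue, fell by 0.79 on the log2 scale (standard error 0.21, adjusted p 0.0324), and it was not called in 8 of 19 settings. Anxa6, an annexin gene, fell by 0.26 (adjusted p 0.0102), although it was not called with low-Xist pools alone (adjusted p 0.0904).

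Of 15 tested cartilage genes (21 in the list), 4 were called higher, a share of 26.7% beside the 3.28% over all genes tested. The median log2 fold change was 0.33. None was called lower, which is near the 4.85% over all genes tested. Cnmd, the gene of chondromodulin, a cartilage protein that inhibits vessel growth, was at 0.541, 0.732, 0.729, 0.424, 1.53 and 0.434 CPM in control pools and at 2.42, 1.72, 1.72, 3.17, 2.04 and 2.06 CPM in cKO pools. These groups did not overlap, and Cnmd rose by 1.61 on the log2 scale (standard error 0.28, adjusted p 0.00298). Hapln1, the gene of the link protein that joins aggrecan to hyaluronan, was at 17.1 to 24.0 CPM in control and 30.7 to 36.9 CPM in cKO pools, a rise of 0.74 (standard error 0.09, adjusted p 0.000240). Sox6, which encodes a partner of SOX9 in chondrocytes, rose by 0.44 (adjusted p 0.00415), and the fibrillar collagen gene Col11a1 rose by 0.38 (adjusted p 0.0309). Cnmd, Hapln1 and Sox6 were called in each of 19 alternative settings, and Col11a1 in 12 of 19. The main collagen of cartilage, Col2a1, was at 2.74 ± 0.666 and 4.02 ± 0.740 CPM (SD, n = 6) and did not pass the test (log2 fold change 0.52, adjusted p 0.0953). The most abundant list members by length, Col9a3 and Col9a2, had log2 fold changes of 0.04 (adjusted p 0.850) and 0.07 (adjusted p 0.634). The largest fall in the list, of the proteoglycan gene Epyc, was a log2 fold change of -1.11 that was not called (standard error 0.53, adjusted p 0.204), with 4 cKO pools below every control pool, and Comp had one of -0.45 (adjusted p 0.475). At an unadjusted p under 0.05, 0 genes of the list were lower in edgeR and 1 in each of DESeq2 and limma-voom. Col10a1, the collagen of hypertrophic cartilage, had 5 counts over the 12 pools.

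No gene of the tooth, osteoclast or RUNX lists was called by edgeR, DESeq2 or limma-voom. Of the 12 tooth and calcium-binding phosphoprotein genes 4 were tested, of the 14 osteoclast genes 9 were tested, among which 1 (Nfatc1) had an unadjusted p under 0.05 (adjusted p 0.109) as against 0 in the other 2 lists, and all 4 RUNX family genes were tested. Counts of 0 in lists this short are near the 8.13% called over all genes tested. Enamel genes were almost without reads, with 0 counts of Odam and Mmp20, 1 of Amelx, 3 of Enam and 3 of Klk4 over all pools. Ambn had 1 count in control and 12 in cKO pools, 11 of them in 1 pool, and Amtn had 0 counts in control and 5 in cKO pools. Clcn7 and Tcirg1, which encode parts of the acid-secreting machinery of osteoclasts and of lysosomes in general, had log2 fold changes of 0.13 (adjusted p 0.466) and -0.15 (adjusted p 0.303). Cbfb, the shared partner of RUNX proteins, had a log2 fold change of -0.05 (adjusted p 0.659). Runx1 had one of 0.46 with a standard error of 0.72 (adjusted p 0.718).

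Among receptors that can bind the RGD motif or osteopontin, 1 of 10 tested genes was called, and it was lower. This share of 10% is near the 8.13% called over all genes tested and is no result about the list. Itga4, the alpha 4 integrin subunit, was at 126, 172, 141, 183, 128 and 153 CPM in control pools and at 67.5, 112, 57.2, 52.5, 33.4 and 31.9 CPM in cKO pools. The groups did not overlap, and Itga4 fell by 1.35 on the log2 scale (standard error 0.25, adjusted p 0.00430). Among the 10 tested genes of this list, the most abundant by length were Itgb1 (log2 fold change -0.24, adjusted p 0.164) and Itgb5 (0.23, adjusted p 0.0780), the latter called higher by DESeq2. Cd44 was at 8.92 ± 8.98 and 16.9 ± 9.29 CPM (SD, n = 6), with an adjusted p of 0.290, and it was called higher with low-Xist pools alone.

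**Figure D3:**
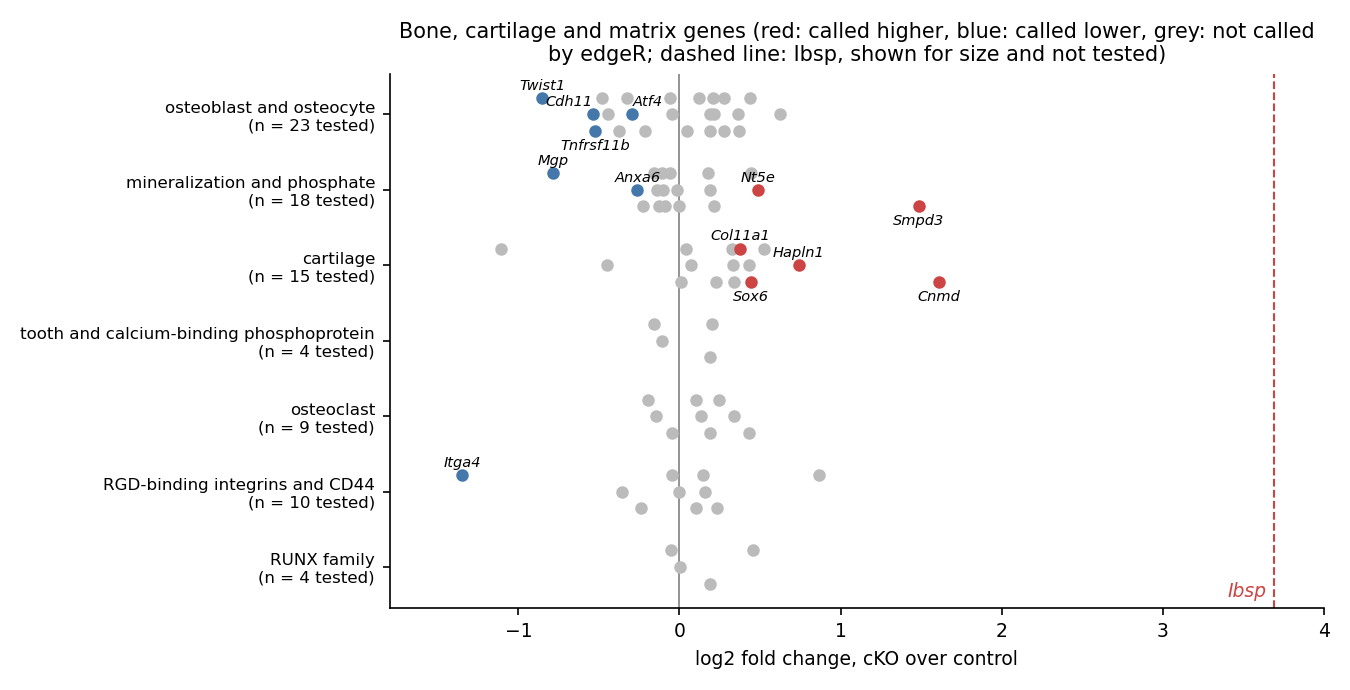
Log2 fold change of cKO over control (horizontal axis) of the tested genes of 7 lists (rows, with heights staggered for legibility), in red where called higher, blue where called lower and grey where not called by edgeR, with a dashed line at the 3.69 of Ibsp. No list gene rose by more than 1.61, and the called genes divide into 6 higher and 7 lower.

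No relation between Ibsp and Nr2f2 was detectable among cKO pools. Over the 6 cKO pools, log2 CPM of Ibsp and of Nr2f2 had a Pearson r of -0.05 (exact two-sided permutation p 0.928, adjusted p 0.928 over 5 members) and a Spearman rho of 0.03 (exact permutation p 1, adjusted p 1). Without the 2 pools farthest from the median of Nr2f2 r was 0.44, so the relation has no fixed sign in these pools. The pool with the most Nr2f2, cKO 2 at 119 CPM, had 1.72 CPM of Ibsp, and the pool with the least, cKO 5 at 50.2 CPM, had 1.76 CPM. In control pools r was 0.77 (exact permutation p 0.0667, adjusted p 0.111; rho 0.83, exact permutation p 0.0583, adjusted p 0.146), from Ibsp values of 1 to 13 counts. Without the 2 control pools farthest from the median of Nr2f2 it was 0.95.

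Of the other members, Alpl followed Nr2f2 within both groups, although it was not called between them. In cKO pools r was 0.97 (exact permutation p 0.00417, adjusted p 0.0208) and rho was 0.94 (exact permutation p 0.0167, adjusted p 0.0833), and r was 0.94 without the 2 farthest pools. In control pools r was 0.92 (exact permutation p 0.00278, adjusted p 0.0139) and rho was 0.94 (exact permutation p 0.0167, adjusted p 0.0833), and r was 0.95 without the 2 farthest pools. The 3 high-Xist cKO pools were the lowest in both Alpl and Nr2f2. Within the 5 low-Xist control pools r was 0.97 (exact permutation p 0.0167; rho 0.90, exact permutation p 0.0833), a value added after the data were seen. The low-Xist and high-Xist cKO pools, 3 of each, are too few for such a value. Dmp1 in cKO pools had an r of 0.83 (exact permutation p 0.0361, adjusted p 0.0903; rho 0.89, adjusted p 0.0833) and Spp1 one of 0.75 (exact permutation p 0.10, adjusted p 0.146; rho 0.77, adjusted p 0.128). Runx2 had an r of -0.69 in cKO pools (exact permutation p 0.117, adjusted p 0.146; rho -0.83, adjusted p 0.0972) and of 0.91 in control pools (exact permutation p 0.0139, adjusted p 0.0347; rho 0.77, adjusted p 0.171), where it was 0.73 without the 2 farthest pools. The difference between the groups in these relations was not tested.

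**Figure D4:**
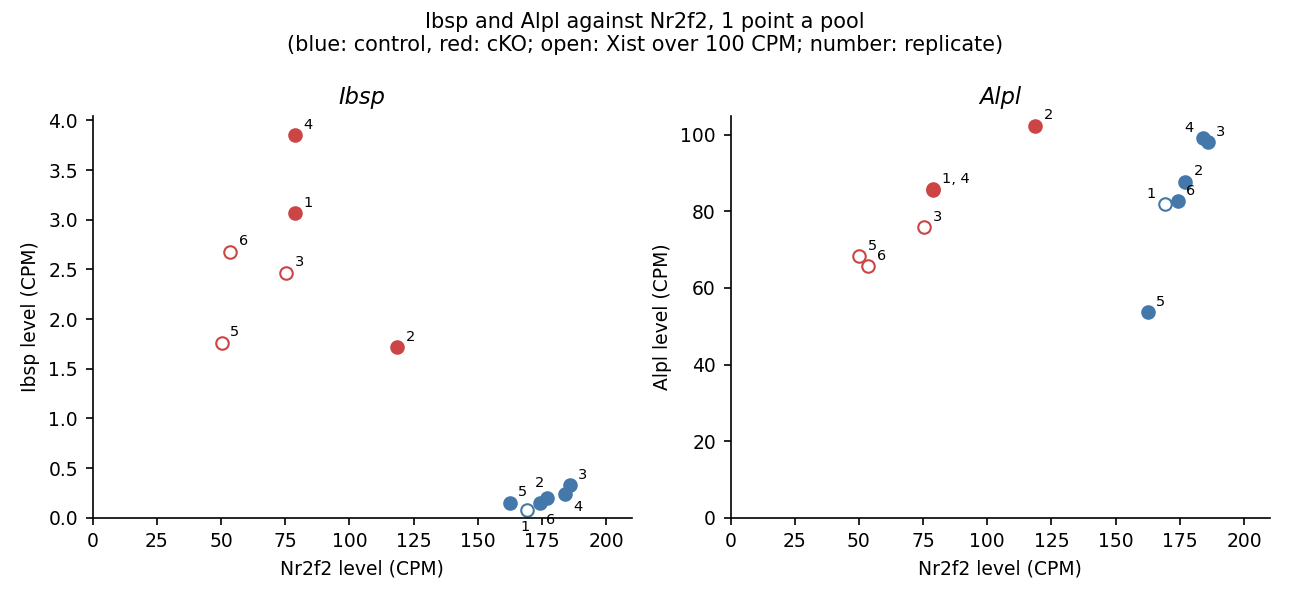
Level of Ibsp (left) and Alpl (right) against that of Nr2f2, all in CPM on linear axes, with a point for each pool, control in blue and cKO in red, open where Xist exceeds 100 CPM, and the replicate number beside it. Ibsp shows no slope among cKO pools (r -0.05), whereas Alpl is higher in pools with more Nr2f2 within cKO (r 0.97) and within control (r 0.92).

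The genes whose pattern was most like that of Ibsp were found by correlation. None was in the bone and matrix lists. These lists hold only 76 of the 15572 genes tested, so their absence among so few genes is no result about bone genes. Among the 14261 genes whose mean level reached 1 CPM, the 5 with the highest Pearson r of log2 CPM to Ibsp over the 12 pools were Myh8 (0.99), Dkk1 (0.98), Asic4 (0.98), 9630028I04Rik (0.98) and Dusp27 (0.98), which share with it the gap between the groups. Myh8, a myosin heavy chain gene of developing skeletal muscle, was at 4.43 ± 0.846 CPM in controls and 21.7 ± 3.10 CPM in cKO testes (SD, n = 6). Dkk1, which encodes a secreted inhibitor of WNT signalling that restrains bone formation, was at 5.71 ± 1.25 and 35.8 ± 8.71 CPM. Asic4, a gene of the acid-sensing ion channel family, was at 2.22 ± 0.394 and 21.7 ± 4.0 CPM. When each pool was expressed as its deviation from its group mean, which removes that gap, the 5 genes were Ube2d1 (0.88), Ntng2 (0.86), 6530402F18Rik (0.84), Rad52 (0.83) and Ubash3b (0.83). By the same measure the members had r to Ibsp of 0.25 for Spp1, 0.16 for Dmp1, 0.28 for Runx2 and 0.27 for Alpl, and no value was computed for Sp7, Dspp and Mepe. These values are descriptions over 12 pools and share the libraries and their depth.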

How the data were processed

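RNA was measured in 12 libraries, 6 control and 6 cKO, grouped by the genotype in their labels. The authors trimmed the read pairs with Trim Galore 0.6.7, aligned them to mm10 with STAR 2.5 and counted them by strand on RefSeq Curated models with featureCounts (Subread 1.5.0-p1). They deposited these raw counts without normalization or filtering, and 2 symbols, neither a member, occur on 2 lines each. Total counts ran from 7044531 to 59404778, so precision for genes of a few counts is set by counting and for others by the spread between pools.

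The members and gene lists were chosen with earlier results of these data known. Analysis used edgeR 4.0.16 under R 4.3.3 (TMM, filterByExpr at min.count 10 and min.total.count 15, glmQLFit and glmQLFTest, no covariate, Benjamini-Hochberg threshold 0.05), a test checked on simulated data. The standard error is the log2 fold change divided by the square root of F. Log2 CPM used a prior count of 2. Exon lengths came from GENCODE M21 and promoters from RefSeq. Genes named were the 8 members, all genes within 500 kb of Ibsp, the called or most abundant genes of each list, the 5 genes most like Ibsp by either measure, Nr2f2 and Xist; Cd44, Nfatc1, Col2a1, Epyc, Comp, Bglap3, Runx1, Emx2, Nanos2 and list genes with few counts were added after their values were seen. Alternatives were DESeq2 (version 1.42.0 here; the authors used an earlier version for their own comparison), limma-voom (limma 3.58.1), RLE factors, 2 other filters, a replicate block, low-Xist pools alone and each pool left out. Protein sequences were not used here. Some genes of the lists are not reported here by name.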

Additional observations from a re-analysis of the deposited data

Results flagged for a closer look

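A pool was set apart when its gap to the nearest other pool of its group, relative to the whole range of the group, exceeded Dixon's 95% critical value. Of 57 groups of 6 pools tested in this way for the members and the named list and locus genes, 8 had such a pool, and chance gives about 1 in 20. Among the members, Runx2 was at 2.68 CPM in cKO 6 against 2.17 CPM in the next pool, and without cKO 6 its log2 fold change was 0.10. Dspp at 0.0541 CPM and Mepe at 0.0271 CPM in control 1 rest on 2 counts and 1 count, with 0 in the other 5 control pools.

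In control 1, the control pool with high Xist, Klhl8 was at 25.6 CPM against 18.7 in the next pool and Hsd17b11 was at 49.7 against 36.0 CPM. In control 5, Cnmd was at 1.53 CPM from 20 counts against 0.732 CPM, and Tnfrsf11b was at 10.3 against 7.23 CPM. In cKO 3, Sparcl1 was at 221 CPM against 179 CPM.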

How the results depend on the processing

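The log2 fold change of Ibsp was higher in cKO in each of 19 alternative settings, at 3.46 to 4.01, and those of Spp1 (0.17 to 0.39) and Runx2 (0.09 to 0.22) kept their sign without being called. Dmp1 turned to 0.25 and Alpl to 0.11 with low-Xist pools alone, neither of them called, and the cause was not tested. Ibsp against Nr2f2 in cKO pools had an r of -0.53 (without cKO 5) to 0.75 (without cKO 2) when 1 pool was left out, and 0.44 without the 2 farthest pools.

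DESeq2 called 1919 genes where edgeR called 1266, and leaving out 1 pool gave 816 (without cKO 4) to 3106 (without control 1) calls. In the 7 lists without Ibsp, leaving out 1 pool gave 3 to 14 genes called higher and 4 to 8 called lower. Leaving out a single pool ended the call of Atf4 for controls 2 to 6 and every cKO pool, of Col11a1 for controls 2, 3 and 4 and cKO 1, 2 and 4, of Mgp for controls 4, 5 and 6 and cKO 1, 4, 5 and 6, of Nt5e for controls 3 and 4 and cKO 1, 2 and 4, of Smpd3 for controls 2, 3 and 4 and cKO 3, 5 and 6, and of Tnfrsf11b for controls 2 and 6 and cKO 1, 3, 4, 5 and 6. Replicate numbers did not pair the pools: the deviations of same-numbered pools correlated at -0.33 to 0.24, 2 of 6 over 0.1, and 1 of 6 cKO pools correlated best with its own number. The fit with a replicate block called 931 genes, of which 4 list genes higher and 4 lower. Depth limits Dspp and Mepe, whose 2 and 4 counts in all allow no comparison.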

Other observations

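Dlx3, a homeobox gene of bone, tooth and placenta in the osteoblast list, did not pass the filter, yet its reads were uneven among cKO pools. Control pools had 0.108 to 0.434 CPM, from 2 to 6 counts each. Pools cKO 1 to 4 had 0.144, 0, 0.115 and 0.0593 CPM, while cKO 5 had 2.71 CPM from 20 counts and cKO 6 had 1.98 CPM from 118 counts. Both are pools with Xist over 100 CPM, and the same 2 pools had the highest Smpd3. The other high-Xist pools did not share the high Dlx3, with 0.115 CPM in cKO 3 and 0.108 CPM in control 1. These values were noticed after the data were examined, and no test was run on them.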
